A study of Homo sapiens with 3 samples.

Results

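Cells with transcripts of primordial germ cells (PGCs), the founders of eggs and sperm, were sought in single-cell profiles of UCLA1, which is an established line of human embryonic stem cells. The cells were chosen by their own UMIs (unique molecular identifiers, 1 per captured transcript): a cell was taken when it held at least 1 UMI of NANOS3, at least 1 UMI in any of the partner genes SOX17, PRDM1 and TFAP2C, and no UMI of FOXA2. The rule took 54 of 7892 kept cells at day 2 and 164 of 7261 kept cells at day 3, together 218 of 15153. They are called the NANOS3 and partner cells below. They were set against the other 7838 and 7097 kept cells of the same day. All cells had been grown in the culture that the labels call GiMO, under an overlay of the basement membrane extract Geltrex, and the groups differ in the labels only by time in culture (1, 2 or 3 days). The labels used here give no genetic change and do not say when or whether BMP4, which the series title names, was added. Each day is 1 droplet library of 1 line, so differences between groups come without replicates or p-values. Every interval is at 95% and covers counting error only.

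Human PGCs arise when early embryonic cells are exposed to BMP and WNT signals. SOX17 and TFAP2C are transcription factors at the head of their programme, PRDM1 is a repressor that holds back somatic genes, and NANOS3 is an RNA-binding protein that keeps the cells alive. SOX17 is also a factor of definitive endoderm, which expresses FOXA2. PGCs retain pluripotency factors such as POU5F1 and NANOG but lose SOX2 in human, and they carry surface proteins such as KIT, PDPN and CXCR4. Amnion, mesoderm and endoderm form around the same time from related cells, so their markers are given below as well.

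The 3 libraries held 4889, 10580 and 7860 barcodes at days 1, 2 and 3, of which those with 1000 or more genes and no more than 20% of UMIs from MT- genes were kept. The NANOS3 and partner cells had a median of 20146 UMIs at day 2, against 15958 in the other cells, and 19435.5 at day 3, against 19577. By the median, the rule therefore drew on deeper cells at day 2 and not at day 3. At day 3 a part of the cells taken was deeper, as given with the clusters below. Between 5 and 13 kept barcodes were shared by a pair of libraries, and none of the cells taken by the rule carried a shared barcode. The automatic threshold of the doublet caller marked 3 cells at day 1 and 1 cell each at days 2 and 3, and so did not work. The highest-scoring cells, 668 at day 2 and 457 at day 3, were left in and removed only as an alternative. They include 3 and 21 of the NANOS3 and partner cells.

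The 300-base windows around annotated starts of NANOS3 and PRDM1 are shown because both genes were detected together with TFAP2C in the same cells at day 3, and the TFAP2 family is known to bind GCCNNNGGC. That motif is its own reverse complement, so both strands are covered, and capitals mark its matches. The windows run from 250 bases before to 50 bases after a start, from RefSeq on GRCh38.p14, 5′ to 3′ on the plus strand, on which both genes lie. The NANOS3 windows are chr19:13861786-13862085 and chr19:13876884-13877183, and the PRDM1 windows are chr6:106086086-106086385 and chr6:106098691-106098990.
NANOS3, first start: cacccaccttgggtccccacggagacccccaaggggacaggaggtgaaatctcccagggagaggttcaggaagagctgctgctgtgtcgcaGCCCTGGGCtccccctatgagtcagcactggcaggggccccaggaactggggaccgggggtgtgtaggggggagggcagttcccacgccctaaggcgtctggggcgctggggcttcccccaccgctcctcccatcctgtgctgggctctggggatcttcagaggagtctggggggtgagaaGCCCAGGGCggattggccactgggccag
NANOS3, last start: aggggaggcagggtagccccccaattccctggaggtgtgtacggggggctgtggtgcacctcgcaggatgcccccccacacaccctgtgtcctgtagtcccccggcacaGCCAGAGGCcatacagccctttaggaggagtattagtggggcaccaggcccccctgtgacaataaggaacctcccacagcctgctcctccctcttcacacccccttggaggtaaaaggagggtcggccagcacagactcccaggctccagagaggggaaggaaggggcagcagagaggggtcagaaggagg
PRDM1, first start: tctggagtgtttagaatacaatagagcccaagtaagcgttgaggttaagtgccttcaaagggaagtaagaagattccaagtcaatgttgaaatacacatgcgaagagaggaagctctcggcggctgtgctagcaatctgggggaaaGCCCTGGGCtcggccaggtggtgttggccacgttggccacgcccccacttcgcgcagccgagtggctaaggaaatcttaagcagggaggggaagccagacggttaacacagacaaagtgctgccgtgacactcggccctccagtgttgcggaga
PRDM1, second start: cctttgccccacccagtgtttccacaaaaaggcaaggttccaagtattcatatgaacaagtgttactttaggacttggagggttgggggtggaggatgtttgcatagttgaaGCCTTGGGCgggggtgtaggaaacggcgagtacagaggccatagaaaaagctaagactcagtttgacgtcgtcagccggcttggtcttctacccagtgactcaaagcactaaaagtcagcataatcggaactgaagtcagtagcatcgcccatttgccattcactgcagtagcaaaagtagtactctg
The first NANOS3 window held 2 matches, at bases 92 and 273, its second window held none, and the other 3 windows printed held 1 each. Windows of KIT, PDPN, NANOG and TFCP2L1 held none, and 2 of the 3 CXCR4 windows held 1 each in an overlapping stretch. Of all 35116 RefSeq windows of this length, 23.2% held at least 1 match. A match describes the letters and is not a binding site. The first NANOS3 window spans the annotated start of the gene, and both PRDM1 windows lie inside the annotated gene, at internal starts. On hg38 (GENCODE release 44) the genes of the rule lie at chr19:13862063-13880757 for NANOS3, chr6:105993463-106109939 for PRDM1 and chr20:56629306-56639283 for TFAP2C.

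The values of the rule genes follow as a description, since they chose the cells. At day 3 NANOS3 was at 131 CPM (UMIs summed over the cells and scaled to 1000000) in the NANOS3 and partner cells, against 0.588 CPM in the other cells. It was at 47.2 CPM at day 2, against 0.951 CPM. In single cells the signal was thin at day 2 and much fuller at day 3. At day 2, 51 of the 54 cells held 1 NANOS3 UMI and none held more than 3. At day 3, 96 of the 164 cells held at least 2 NANOS3 UMIs, 38 held at least 4, and the highest held 17.

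The partner genes were stacked in the same cells at day 3 and mostly stood alone at day 2. All 3 partner genes were detected in 91 of the 164 cells at day 3 and in 6 of the 54 cells at day 2. Exactly 1 partner gene was detected in 31 cells at day 3 and in 41 cells at day 2, of which 27 held TFAP2C alone. SOX17, PRDM1 and TFAP2C each had a UMI in 129, 130 and 129 of the 164 cells at day 3, against 4.65%, 12.6% and 5.90% of the other cells.

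Joint detection was compared with the product of the shares within 10 classes of depth, as a description, in all kept cells with or without FOXA2. Applied to day 1, the same rule took 111 of 3677 kept cells, where NANOS3 and any partner gene met in 111 cells against 109 expected from the shares. At day 2 they met in 55 cells, against 45.7 expected, and at day 3 in 169 cells, against 54.3 expected. The cells at day 1 were thus about as many as separate detection of the genes gives, those at day 2 were 1.20 times as many, and those at day 3 were 3.11 times as many. MESP1, a mesoderm factor outside the rule, met NANOS3 in 85 cells at day 2, against 60.8 expected, 1.40 times as many. This lay above the 1.20 times for cells with at least 1 partner gene, and above PRDM1 (1.26) and TFAP2C (1.19). It lay below SOX17, which met NANOS3 in 20 cells at day 2, against 7.69 expected, 2.60 times as many. At day 3 MESP1 met NANOS3 in 138 cells, which is 0.690 times the number expected. NANOS3 met all 3 partner genes in 6 cells at day 2, against 1.10 expected, and in 94 cells at day 3, against 5.56 expected. KIT, the receptor of stem cell factor, which the rule did not use, met NANOS3 in 11 cells at day 2, against 18.3 expected, and in 71 cells at day 3, against 12.9 expected. In the day 1 cells, 299 of 14212 genes (2.1%) were at least 1.5-fold higher than in the other cells and 276 (1.94%) at least 1.5-fold lower, and of 12 PGC genes outside the rule TFCP2L1 was higher (1.54-fold, 0.868 to 2.56) and 0 were lower.

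Among cells without FOXA2, the share with a NANOS3 UMI stood at 1.24%, 2.76%, 23.0% and 70.5% at day 3 in cells with 0, 1, 2 and 3 partner genes. At day 2 these shares were 2.00%, 2.87%, 4.70% and 15.8%, with an interval of 6.02% to 31.3% for the last. As a background, cells with at least 3 UMIs of the mesoderm factor MESP1 and no partner gene had a NANOS3 UMI in 34 of 976 cells at day 2 (3.48%) and in 44 of 3954 cells at day 3 (1.11%). Median depths of these cells were 17011 and 20517.5 UMIs. The day 2 share in cells with 1 partner gene lay below that background, which itself lay above the 2.00% of all cells with no partner gene, so it is not read as expression. The cells just outside the rule number 124 at day 2 and 71 at day 3 with NANOS3 but no partner gene, and 1 and 5 with FOXA2.

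**Figure D1:**
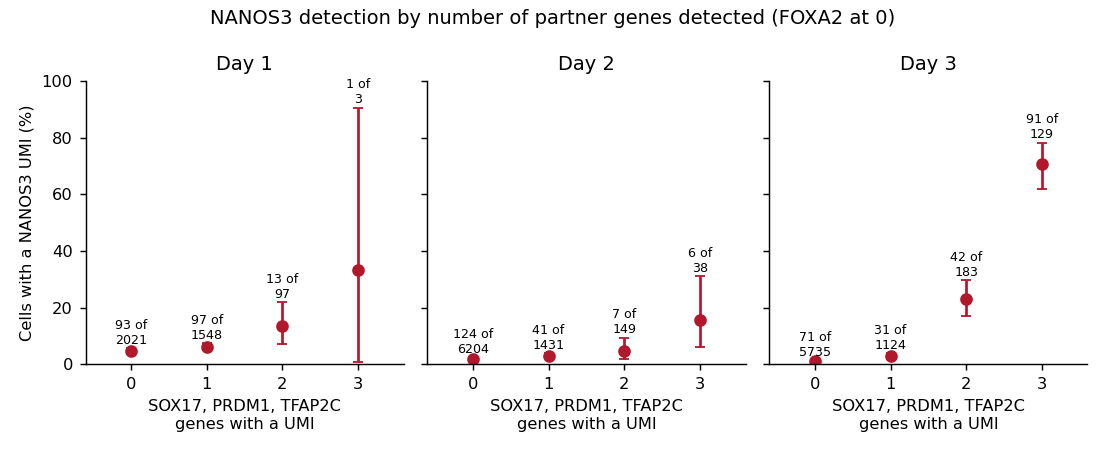
Share of cells with a NANOS3 UMI (percent) at days 1, 2 and 3 against the number of partner genes (SOX17, PRDM1, TFAP2C) with a UMI, among kept cells without FOXA2. Points are shares of cells, bars exact binomial 95% intervals, and labels the cells with NANOS3 of all cells in that class; at day 3 the share reaches 70.5% in cells with 3 partner genes, and at day 2 15.8%.

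Germ cell genes that the rule did not use were mostly higher at day 3 and not at day 2. With no limit on UMIs, 15 of the 16 listed PGC genes were at least 1.5-fold higher in the NANOS3 and partner cells at day 3. DPPA3 was 1.31-fold higher on 3 UMIs. The 15 include the surface enzyme CD38 on 2 UMIs (1.67-fold, 0.197 to 6.38). On the same basis 3 of the 16 were higher at day 2 and 8 were lower. Without a limit, lower genes far outnumbered higher ones over all genes at both days, most of them too low to be compared. The 8 lower genes at day 2 are therefore not read as a result about the list. Counts over all genes with no such limit are given with the processing below. Of the 16, 8 had a level at which at least 10 UMIs were expected, and all 8 were at least 1.5-fold higher, where 10.2% of the 13130 genes compared were. In this and the following comparisons, a value set against another is that of the NANOS3 and partner cells against that of the other kept cells of the same day, and a gene past 1.5-fold in neither direction is called between. The median log2 ratio of the 8 was 3.46, against -0.08 over all genes compared. KIT reached that level only through the NANOS3 and partner cells themselves, so its place in that count was fixed by the filter. At day 2, 7 of the 16 could be compared and 0 were at least 1.5-fold higher, where 2.96% of 10198 genes were; NANOG and PRDM14 were at least 1.5-fold lower, where 6.39% were.

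Surface proteins of PGCs were many-fold higher at day 3. PDPN (chr1:13583465-13617957), the mucin-like glycoprotein podoplanin used to sort human PGC-like cells, was at 469 CPM in the NANOS3 and partner cells, against 18.1 CPM in the other cells, 26.0-fold higher (24.4 to 27.6). At day 2 it was at 40.8 CPM, against 42.7 CPM. KIT (chr4:54657267-54740783) was at 34.7 CPM at day 3, against 2.31 CPM, 14.98-fold higher (12.2 to 18.4). At day 2 KIT had 1 UMI in the 54 cells, 0.80 CPM against 5.36 CPM, and was detected in 1.85% of them against 8.47% of the other cells. CXCR4 (chr2:136114349-136119177, minus strand), the chemokine receptor that guides migrating PGCs in mouse and fish, was at 56.4 CPM at day 3, against 4.35 CPM, 13.0-fold higher (11.1 to 15.2). It had 2 UMIs at day 2. Both KIT and CXCR4 were near these day 3 levels also in cells with SOX17 and FOXA2 UMIs, described under Other observations. ITGA6, a laminin-binding integrin subunit, was at 99.0 CPM at day 3, against 10.5 CPM, and at 44.8 CPM at day 2, against 53.5 CPM.

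Among the nuclear factors of the list, NANOG and POU5F1 were higher at day 3 and not at day 2. NANOG (chr12:7787794-7799146) was at 108 CPM at day 3, against 8.36 CPM, 12.9-fold higher (11.5 to 14.4), and at 28.0 CPM at day 2, against 57.0 CPM, a ratio of 0.491 (0.342 to 0.684). POU5F1 was at 954 CPM at day 3, against 388 CPM, 2.46-fold higher (2.38 to 2.54), and at 958 CPM at day 2, against 1037 CPM. Its level in the NANOS3 and partner cells was thus nearly the same at both days, and the other cells had less of it at day 3. POU5F1 has near-identical pseudogenes, so its counts are less certain. TFCP2L1, SOX15, KLF4, DND1 and PRDM14 were too low in the library to be compared at day 3, and their values are given as a description. TFCP2L1, a factor of naive pluripotency also expressed in PGCs, had 76 UMIs at day 3, 19.95 CPM against 0.562 CPM, 35.5-fold higher (25.7 to 49.0). SOX15 was 10.6-fold higher (8.15 to 13.7) on 78 UMIs, KLF4 9.54-fold higher (5.96 to 14.8) on 26 UMIs, and DND1, an RNA-binding partner of NANOS proteins, 8.73-fold higher (4.25 to 16.5) on 12 UMIs. PRDM14, a regulator of pluripotency and of mouse PGCs, was 3.98-fold higher (2.64 to 5.80) on 30 UMIs. At day 2, DND1 and DPPA3 had 0 UMIs, which at a limit of 3 counts over the cells allows up to 2.40 CPM. TFCP2L1, KLF4 and TCL1B had 3 or fewer at day 2, and TFCP2L1 was 1.82-fold higher (0.371 to 5.39) on 3 UMIs. The remaining members were modest at day 3: ALPL was 1.94-fold, LIN28A 1.56-fold and TCL1B, also too low to be compared, 3.64-fold higher.

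**Figure D2:**
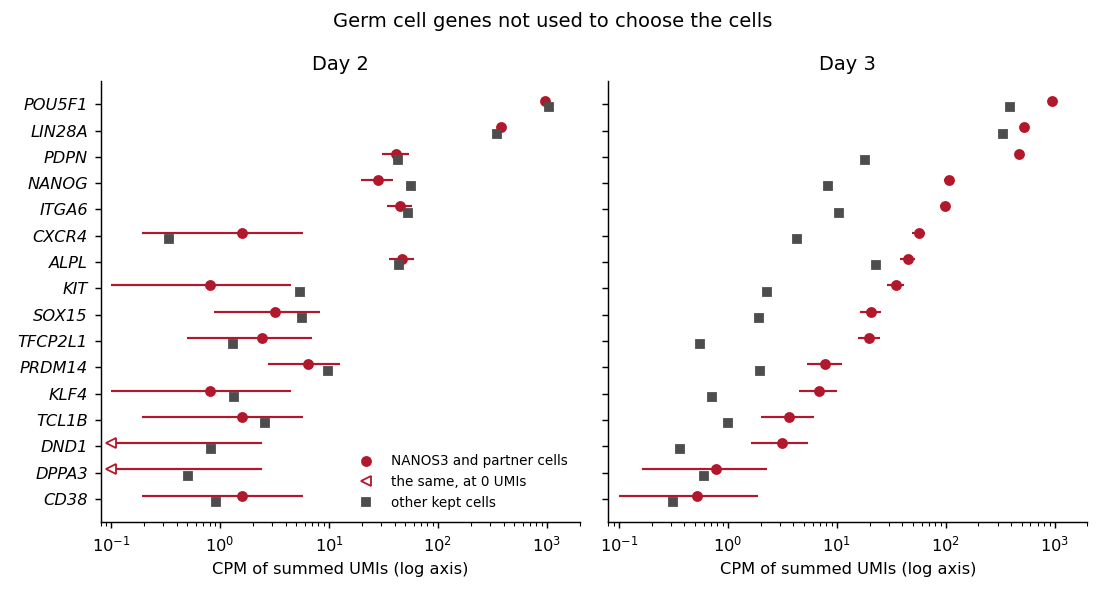
Level (CPM of summed UMIs, log axis) of the 16 PGC genes that the rule did not use, at days 2 and 3, in the NANOS3 and partner cells (red circles, bars Poisson 95% intervals; open triangles at 0 UMIs, with bars up to the limit of 3 counts) and in the other kept cells (grey squares). At day 3 PDPN stands at 469 against 18.1 CPM and KIT at 34.7 against 2.31 CPM, while at day 2 PDPN stands at 40.8 against 42.7 CPM.

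Cell by cell, with each cell thinned to 5000 UMIs, these genes were detected in a larger share of the NANOS3 and partner cells of day 3 than of the other cells or the MESP1 background cells. PDPN had a UMI in 123 of 164 NANOS3 and partner cells (75.0%), against 6.99% of the other cells and 4.93% of the MESP1 background cells; unthinned, the shares were 90.2%, 21.7% and 18.8%. NANOG had a UMI in 42.1% of the NANOS3 and partner cells, against 3.33% and 1.14% (unthinned 74.4%, 9.54% and 4.91%). For CXCR4 the thinned shares were 23.2%, 2.12% and 1.72%, and for KIT 18.9%, 1.19% and 0.531% (unthinned 59.8%, 6.69% and 6.22% for CXCR4, and 37.8%, 3.87% and 2.33% for KIT). At day 2 the thinned share for PDPN was 14.8%, against 18.2% of the other cells, and for NANOG 9.26%, against 22.8%. Thinning left out 129 of the other cells at day 3 and 484 at day 2, and none of the NANOS3 and partner cells.

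The label of a PGC-like cell was checked against KIT, its only marker outside the rule, and SOX2. KIT was far higher at day 3 and had 1 UMI at day 2. SOX2 was at 1.84 CPM at day 3, against 6.72 CPM, and at 28.8 CPM at day 2, against 79.9 CPM. NANOS3, SOX17, PRDM1 and TFAP2C chose the cells and so check nothing, at either day. The marker left to check the label is KIT, which stands with it at day 3 and against it at day 2. The day 2 cells are therefore named only by the rule. KIT was nearly as high in the day 3 cells with SOX17 and FOXA2 UMIs, described under Other observations. It therefore does not set the NANOS3 and partner cells apart from those cells. Genes of later germ cells were low or near 0. DAZL, MAEL, PIWIL1 and NANOS2 had 0 UMIs at day 3, which at the same limit of 3 counts allows up to 0.788 CPM each. The other cells held MAEL, PIWIL1 and NANOS2 below that limit too, at 0.0869, 0.0535 and 0.00668 CPM, so their 0 shows no difference. DAZL was at 1.02 CPM in the other cells. DDX4, the VASA helicase, had 1 UMI, and PIWIL2 was between, at 3.68 CPM against 3.93 CPM. TEX15, a factor of later germ cells, was at 3.68 CPM at day 3, against 8.08 CPM.

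At day 3 the germ cell genes were graded with the number of partner genes. PDPN stood at 184, 422 and 578 CPM in the 31, 42 and 91 NANOS3 cells with 1, 2 and 3 partner genes. In the same order KIT stood at 10.2, 19.2 and 49.0 CPM, and the values of NANOG were 50.8, 78.9 and 138 CPM. MESP1 ran the other way, at 222, 188 and 91.2 CPM. LEFTY2, a secreted NODAL inhibitor, was not graded, at 94.3, 456 and 340 CPM. The 26 cells at the edge of the rule, with 1 NANOS3 UMI and 1 partner gene, had PDPN at 151 CPM, KIT at 11.5 CPM and MESP1 at 229 CPM.

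Cells just outside the rule differed by which gene they lacked. The 38 cells of day 3 with all 3 partner genes and no NANOS3 UMI had PDPN at 329 CPM, KIT at 22.1 CPM and NANOG at 87.4 CPM, which lie within the range of the cells taken. The 71 cells with NANOS3 and no partner gene had PDPN at 32.1 CPM, KIT at 4.08 CPM and NANOG at 18.1 CPM. The other cells had 18.1, 2.31 and 8.36 CPM of these genes, so the 71 cells lay above them and below every class of the cells taken. Their MESP1 level, 367 CPM, was above the 322 CPM of the other cells. They also held IGFBP3, an insulin-like growth factor binding protein, at 37.3 CPM, against 8.25 CPM in the other cells and 1.31 CPM in the NANOS3 and partner cells. The FOXA2 limit set aside a cell class of its own: 72 cells of day 3 with SOX17 and FOXA2 had SOX17 at 380 CPM, TFAP2C at 19.5 CPM, NANOS3 at 7.05 CPM and PDPN at 97.1 CPM.

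**Figure D3:**
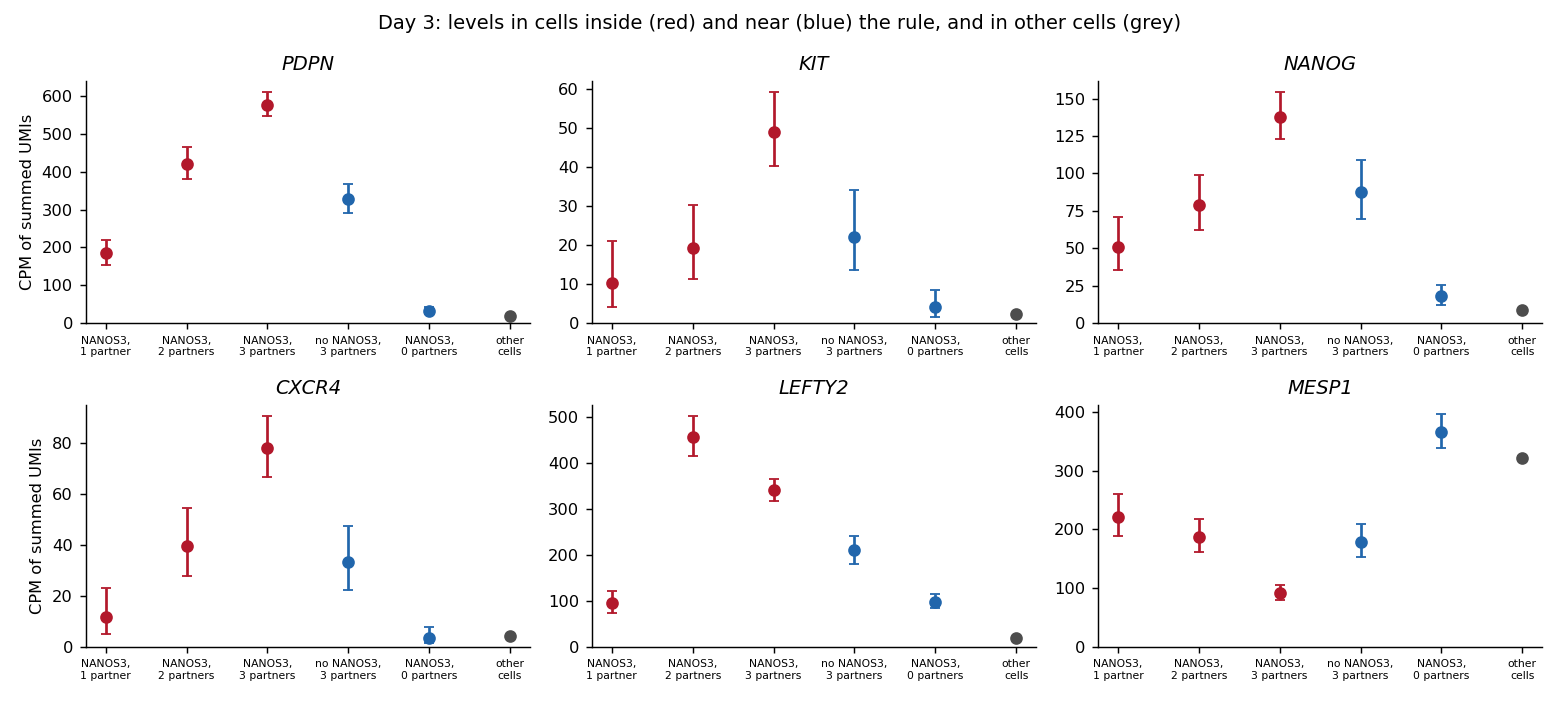
Level at day 3 (CPM of summed UMIs) of 6 genes in NANOS3 cells with 1, 2 and 3 partner genes (red), in cells with 3 partner genes and no NANOS3 and in NANOS3 cells with no partner gene (blue), and in the other kept cells (grey); bars are Poisson 95% intervals. PDPN, KIT, NANOG and CXCR4 are highest with 3 partner genes (PDPN 578 CPM) and MESP1 is lowest there (91.2 CPM).

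Pluripotency genes were split at day 3. Of the 18 compared, 5 were at least 1.5-fold higher (POU5F1, NANOG, LIN28A, DPPA2 and SFRP2) and 7 at least 1.5-fold lower. Of all genes, 10.2% were higher and 15.5% lower. The median log2 ratio of the list was -0.25. DPPA2, a chromatin factor, was 2.65-fold higher (1.86 to 3.68), and SFRP2, a secreted WNT modulator, was at 410 CPM, against 106 CPM. UTF1, too low in the library to be compared, had 76 UMIs and was 13.7-fold higher (10.4 to 17.9). The lower ones include factors of the primed epiblast: SOX2, OTX2 (ratio 0.228, 0.137 to 0.357), ZIC2 (0.459) and the de novo DNA methyltransferase DNMT3B (0.644). At day 2, 6 of 19 were lower, among them SOX2, OTX2 and DNMT3B, and 0 were higher, where 6.39% and 2.96% of all genes were.

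Mesoderm was lower as a list at day 3. All 15 mesoderm genes compared were at least 1.5-fold lower, where 15.5% of all genes were, with a median log2 ratio of -1.61. The summed list stood at 965 CPM, against 2756 CPM in the other cells. MESP1 was at 139 CPM, against 322 CPM. GATA6, a factor of mesoderm and endoderm, was at 75.6 CPM, against 262 CPM, and PDGFRA, a growth factor receptor of mesoderm, was at 19.4 CPM, against 75.9 CPM. At day 2 the list was mixed, with 4 of 10 lower, where 6.39% of all genes were, and BMP4 higher (1.81-fold, 1.41 to 2.29), and MESP1 was at 71.2 CPM, against 76.2 CPM. Of 13 primitive streak genes at day 3, 7 were lower, including EOMES at 52.5 CPM against 132 CPM, and NODAL was higher. TBXT, brachyury, was between, at 66.4 CPM against 58.3 CPM.

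The other cell types of the disc gave partial matches. The endoderm list shares CXCR4 and LEFTY1 with this population, and these were the 2 of 7 that were higher at day 3, while CER1, GATA4, GATA6 and OTX2 were lower, where 10.2% and 15.5% of all genes were. FOXA1, HHEX and HNF4A were close to 0 in both groups, with 1 UMI each in the 164 cells. The other cells held them at 0.207, 0.709 and 0.528 CPM, so no difference can be read from these genes. FOXA3 was between, at 6.30 CPM against 7.73 CPM. In the hemato-endothelial list 4 of 5 were lower, and PECAM1, TAL1 and GATA1 had 0 UMIs. ESAM, an adhesion molecule of that list too low to be compared, had 17 UMIs and was 22.3-fold higher (11.5 to 41.7). In neural ectoderm, PAX6, SOX1, HES5 and SIX3 had 0 UMIs, and NES was between.

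Amnion genes were mostly higher at day 2 and mostly lower at day 3, but the genes that could be compared differed between the days. At day 2, 4 of the 5 compared were at least 1.5-fold higher, where 2.96% of all genes were, with a median log2 ratio of 1.15, against -0.02 over all genes. HPGD, a prostaglandin-degrading enzyme, was at 180 CPM, against 45.0 CPM, 4.00-fold higher (3.48 to 4.57). TFAP2A, the factor named in the series title, was at 32.8 CPM, against 15.3 CPM, and GATA3 at 41.6 CPM, against 18.8 CPM. TBX3 was 2.30-fold higher (1.80 to 2.89). The summed amnion list stood at 390 CPM in the NANOS3 and partner cells of day 2, against 151 CPM, with VTCN1 at 0; the part of amnion-like cells among them was not tested. At day 3, 2 of 11 were higher, TFAP2A at 23.6 CPM against 8.36 CPM and HPGD at 211 CPM against 32.3 CPM, and 7 were lower, including ISL1, GATA2 and GABRP, where 10.2% and 15.5% of all genes were. GATA3 was between at day 3, at 37.8 CPM against 52.1 CPM. Of the 4 genes higher at day 2, TBX3 alone was lower at day 3. ISL1, GATA2, GABRP, DLX5 and IGFBP3, lower at day 3, were too low to be compared at day 2. TFAP2A was highest at the edge of the rule, at 47.9, 19.2 and 17.9 CPM with 1, 2 and 3 partner genes.

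**Figure D4:**
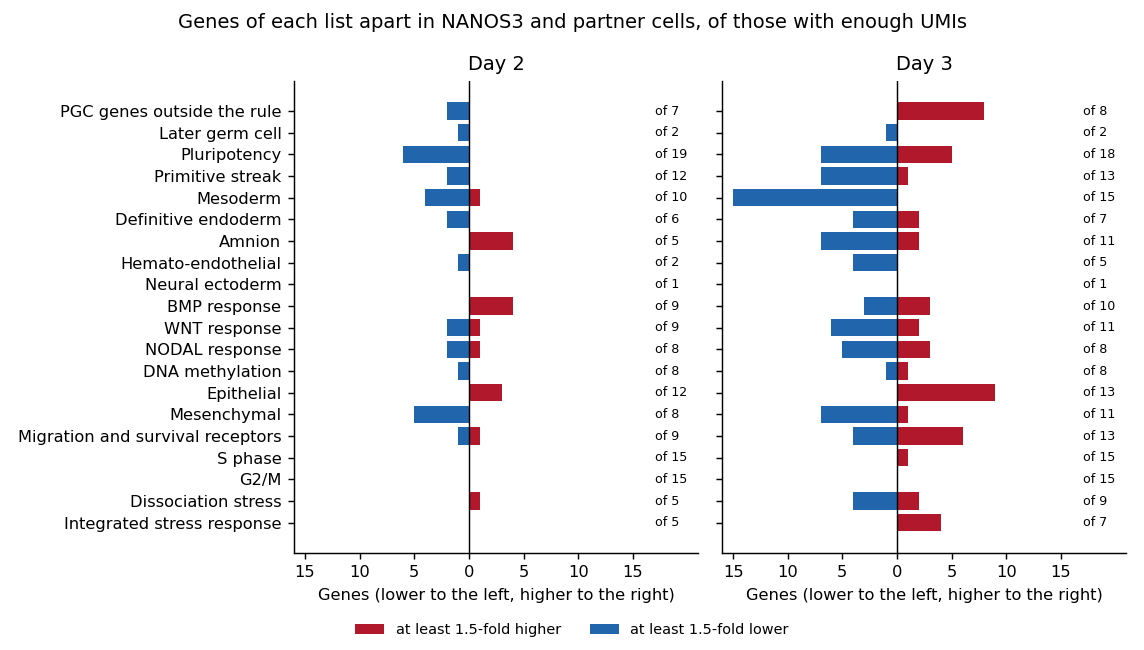
Number of genes of each list that were at least 1.5-fold higher (red, to the right) or lower (blue, to the left) in the NANOS3 and partner cells than in the other kept cells, at days 2 and 3, with the number that had enough UMIs at the right. At day 3 all 8 PGC genes outside the rule are higher and all 15 mesoderm genes lower, and at day 2 4 of 5 amnion genes are higher.

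Signalling genes stood in both directions at day 3, where 10.2% of all genes were higher and 15.5% lower. Among BMP response genes, ID1 was at 559 CPM, against 191 CPM (2.93-fold, 2.80 to 3.06), ID4 was 2.83-fold and MSX2 1.83-fold higher, while MSX1, SMAD6 and SMAD9 were lower, 3 each way of 10. At day 2, 4 of 9 were higher (ID4, MSX1, SMAD6 and BAMBI), where 2.96% of all genes were, of which SMAD6 at 1.51-fold lay at the threshold. In the NODAL list LEFTY2 was at 324 CPM at day 3, against 17.9 CPM, 18.1-fold higher (16.9 to 19.4), and LEFTY1, its neighbouring paralog, was 11.4-fold higher (9.87 to 13.1). The ligand NODAL was 2.13-fold higher, and among the lower genes were the co-receptor TDGF1, CER1, GDF3 and FOXH1. At day 2 LEFTY2 was at 15.2 CPM, against 14.5 CPM, and LEFTY1 at 14.4 CPM, against 30.8 CPM. Of 11 WNT response genes, AXIN2 (1.58-fold) and RNF43 (3.78-fold), both feedback inhibitors, were higher at day 3 and 6 were lower, including LGR5 at 36.0 CPM against 155 CPM.

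Receptors of migration and survival were higher for 6 of 13 and lower for 4 at day 3, where 10.2% and 15.5% of all genes were. KIT is among the 6 only through the filter. Besides KIT, CXCR4 and ITGA6, the BMP receptors BMPR1A and BMPR1B were 1.53-fold and 1.63-fold higher and FGFR3 was 1.57-fold higher. FGFR1, FGFR2, LIFR and S1PR1 were lower. GFRA1, a receptor of glial cell line-derived factors, had 40 UMIs, too low in the library to be compared, and was 7.45-fold higher (5.17 to 10.5). IL6ST, the shared receptor subunit of LIF and interleukin 6, was 2.70-fold higher (2.11 to 3.40) at day 2 and 1.33-fold higher at day 3.

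Most epithelial genes compared were higher at day 3, and most mesenchymal genes lower at both days. At day 3, 9 of 13 epithelial genes were at least 1.5-fold higher and 0 lower, where 10.2% and 15.5% of all genes were, with a median log2 ratio of 0.80. Thinning gave 3 higher and 2 lower. EPCAM, an epithelial adhesion molecule, was at 268 CPM, against 58.3 CPM, the splicing factor ESRP1 was 4.92-fold (4.46 to 5.42) and the tight junction protein CLDN7 3.31-fold higher (2.94 to 3.71). CDH1, E-cadherin, was at 47.3 CPM, against 31.5 CPM, close to the threshold, and the keratin KRT8 was between, at a ratio of 0.865. Of 11 mesenchymal genes 7 were lower, including ZEB2 at 28.9 CPM against 143 CPM and CDH11 at 155 CPM against 590 CPM. MMP2 was higher, at 173 CPM against 96.0 CPM, and VIM was between, at 898 CPM against 813 CPM. At day 2, 3 of 12 epithelial genes (DSP, KRT8 and KRT19) were higher, where 2.96% of all genes were. Of 8 mesenchymal genes at day 2, 5 were lower, where 6.39% of all genes were, with VIM at 110 CPM against 192 CPM.

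Genes of DNA methylation and the cell cycle were mostly between, and stress genes were mostly past 1.5-fold at day 3. TET1, which oxidises methylcytosine, was at 286 CPM at day 3, against 158 CPM, 1.81-fold higher (1.71 to 1.93), and DNMT3B was lower at both days. DNMT1 and UHRF1, which maintain methylation, were at ratios of 0.895 and 1.01 at day 3. Of 15 S phase genes CDCA7 alone was at least 1.5-fold higher, and of 15 G2/M genes 0 were apart at either day. Of 7 genes of the integrated stress response, 4 were higher at day 3, led by DDIT4 at 44.6 CPM against 4.58 CPM (9.75-fold, 8.19 to 11.5), where 10.2% of all genes were, and 0 of 5 at day 2. The 4 came down to 1 with at least 2 NANOS3 UMIs required, to 1 with at least 20 UMIs expected and to 0 after thinning. Of 9 genes of dissociation stress, EGR1 and IER2 were higher and 4 lower at day 3, where 10.2% and 15.5% of all genes were. In the 5 genes compared at day 2, ATF3 was 1.57-fold higher (0.970 to 2.41), where 2.96% of all genes were higher.

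At least 1.5-fold higher at both days were 96 of 10156 genes compared at both (0.945%), and 222 (2.19%) were lower at both. The days share no library. Ranked by the lesser of the log2 ratios, the higher genes are led by DMD (chrX:31097677-33339609, minus strand), which encodes dystrophin, at 741 CPM at day 2, against 173 CPM, and at 2053 CPM at day 3, against 108 CPM, 18.9-fold higher (18.4 to 19.5). HPGD came next. FAM20A, a pseudokinase of enamel formation, was 2.60-fold higher (2.11 to 3.17) at day 2 and 22.5-fold higher (20.4 to 24.8) at day 3. SGK1, a serum- and glucocorticoid-regulated kinase, was 3.44-fold (2.48 to 4.66) and 12.3-fold higher (10.8 to 14.0) at days 2 and 3, and CCNG2, an atypical cyclin, 3.10-fold (1.88 to 4.82) and 7.38-fold higher (6.43 to 8.46). Also among the 15 highest were PRSS12, NTF3, SBF2-AS1, UNC13C, TMEM191B, RNF43, PIFO, AHNAK and CAMK2N1. For this ranking at least 20 UMIs were asked in the NANOS3 and partner cells themselves at each day. Of the higher genes named here, all but DMD, HPGD, FAM20A and AHNAK reached that limit at day 2 only through these cells. Their direction at day 2 was therefore fixed by the filter. SBF2-AS1 is antisense to SBF2 and TMEM191B has near-identical copies, so their counts are less certain.

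FLT1, DLL3 and RSPO3 were near the top of the genes lower at both days. FLT1, a VEGF receptor, had ratios of 0.318 (0.204 to 0.474) and 0.274 (0.228 to 0.327) at days 2 and 3, and was at 33.1 CPM at day 3, against 121 CPM, and DLL3, a NOTCH ligand, at 59.9 CPM, against 186 CPM. LHX1 was at 213 CPM at day 3, against 667 CPM, and the WNT agonist RSPO3 at 23.9 CPM, against 94.7 CPM. Also among the 15 lowest were PLXNA2, SOX2, PPP2R2B, FOXD3-AS1, KCNQ1OT1, USP44, GDAP1, B4GALNT3, FZD7 and NRG3.

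The genes that stood furthest apart at day 3 are named after their values were seen. For the higher ones at least 20 UMIs were asked in the NANOS3 and partner cells themselves. All the higher ones named here reached that limit only through these cells, so their direction was fixed by the filter. VSTM2B was at 150 CPM, against 2.80 CPM, 53.4-fold higher (47.0 to 60.8), and at day 2 it was at 9.60 CPM on 12 UMIs, against 3.06 CPM. TRPC5, a cation channel, was at 166 CPM, against 3.71 CPM, and at day 2 at 4.80 CPM, against 5.02 CPM. NRK, a kinase, was at 211 CPM, against 4.87 CPM, and at day 2 at 4.00 CPM on 5 UMIs, against 2.15 CPM. WNT2, a WNT ligand, had 143 UMIs in the NANOS3 and partner cells, 37.5 CPM against 0.682 CPM, and 0 UMIs at day 2. The glutathione transferases GSTA1, GSTA2 and GSTA3 were at 36.2, 59.6 and 17.3 CPM, against 0.822, 1.35 and 0.214 CPM, and are close paralogs between which reads could be split. At the low end HAND2, a factor of limb and heart mesoderm, had 3 UMIs, 0.788 CPM against 8.72 CPM.

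Clusters were made per library from genes other than those of the rule, and they gather the day 3 cells more than those of day 2. At day 3, 119 of 164 NANOS3 and partner cells (72.6%) lay in 1 cluster of 382 cells led by NRK, IGFBP3, VSTM2B, EPAS1 and NANOS3. At a finer resolution, chosen after the data were seen, 115 lay in a cluster of 197 cells that had VSTM2B, NRK, NANOS3, TRPC5 and TFAP2C on top. Both clusters were picked as those with most of the NANOS3 and partner cells, so rule genes among their leading genes are no check. The other 82 cells had less PDPN and KIT than the 115, and more than the other kept cells of day 3 as a whole. PDPN was at 707 CPM in the 115 and 420 CPM in the 82, and KIT at 52.7 and 30.2 CPM. TFAP2C was at 224 and 132 CPM, and NANOS3 at 9.06 CPM in the 82. Both are rule genes, given as a description. IGFBP3 stood at 0.471 CPM in the 115 and 0.755 CPM in the 82, so the IGFBP3 cells of the wider cluster lay outside the finer one. On average 59.2% of the 15 nearest neighbours of a NANOS3 and partner cell were of the same kind at day 3, against 1.01% for the other cells, and 2.35% at day 2, against 0.592%.

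The NANOS3 and partner cells outside the main cluster of day 3 were deeper and more mixed. A cluster of 430 cells held 29 of these and had a median of 36321.5 UMIs, against 19576 in the library. The 45 NANOS3 and partner cells outside the main cluster had a median of 36810 UMIs, with PDPN at 171 CPM and MESP1 at 273 CPM, against 17105 UMIs, 680 CPM and 42.7 CPM in the 119 inside it. Their MESP1 lay between that of the 119 and of the other kept cells. Of the NANOS3 and partner cells, 21 were among the highest doublet scores, with a median of 39198 UMIs. Without those, PDPN was at 532 CPM and KIT at 38.2 CPM in the remaining 143 cells. The part of doublets in the mixed profile was not tested.

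At day 2 the largest group, 26 of 54 cells (48.1%), lay in a cluster of 823 cells led by DMD, UNC13C, AC087235.1, TACR1 and SPATA16. They made up 3.16% of that cluster, which held 10.4% of all kept cells of day 2. The other 28 were spread over 8 of the remaining 10 clusters. The 26 had HPGD at 302 CPM, TFAP2C at 56.2 CPM, NANOG at 13.1 CPM and no KIT UMI. The 28 had HPGD at 89.4 CPM and NANOG at 39.1 CPM. Cells of the finer cluster of day 2 that were not taken by the rule, 257 of them, had HPGD at 217 CPM, so this level was not confined to cells with NANOS3.

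**Figure D5:**
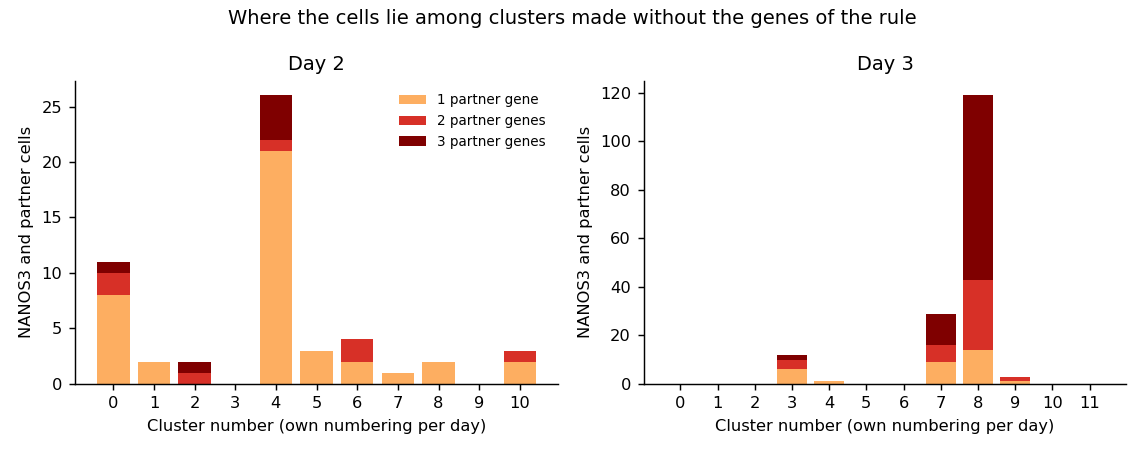
Number of NANOS3 and partner cells in each cluster (own numbering per day) at days 2 and 3, coloured by the number of partner genes with a UMI. At day 3, 119 of 164 cells lie in cluster 8, 76 of them with 3 partner genes, and at day 2 the largest group is 26 of 54 cells in cluster 4.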

How the data were processed

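Single cells of UCLA1 cultured for 1, 2 or 3 days were captured on the 10x Genomics droplet platform, per the labels' protocols, and the day of a library is that of its time label. For each library the authors deposited raw UMI counts (whole numbers, 36601 genes). Cell Ranger 5.0.1 and hg38 are named in the submitters' processing notes. The sources used here do not state other filters, or whether the libraries were separate batches, so day, library and batch cannot be told apart.

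Barcodes were kept from 1000 genes up and with no more than 20% of UMIs from MT- genes. UMIs were summed over the NANOS3 and partner cells and over the other kept cells of the same library and divided by their totals to give CPM. Ratios have conditional binomial intervals (Clopper-Pearson), CPM exact Poisson intervals and shares exact Clopper-Pearson intervals, all at 95%. They cover counting error only. Genes were compared when the level over all kept cells would give at least 10 UMIs in the NANOS3 and partner cells, leaving out the 5 rule genes, and a ratio past 1.5 was counted. With 1 library per day no count model or p-value was used. The comparison code was tested on simulated data.

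For shares, cells were thinned to 5000 UMIs. Clusters used 2000 variable genes without the rule genes, 30 principal components, 15 exact neighbours and Leiden clustering (leidenalg 0.10.2, igraph 0.11.9), with Scrublet in scanpy 1.11.5 for doublets. Python 3.11.15 was used, and TMM factors came from edgeR 4.0.16 in R 4.3.3 as an alternative scaling. The members, the 21 gene lists and the rules were chosen with earlier results of these data known. Named genes are list members, the 15 highest and 15 lowest by the lesser of the day 2 and day 3 log2 ratios (at least 20 UMIs, seen or expected), and the 5 leading genes of the cluster with most of the cells. Some genes of the lists and ranks are not reported here. Alternatives changed the rule, doublets, depth, cell filter, comparison cells, scaling and gene filter.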

Additional observations from a re-analysis of the deposited data

How the results depend on the processing

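The share of NANOS3 and partner cells among kept cells follows the rule. With at least 2 NANOS3 UMIs it was 0.0380% at day 2 and 1.32% at day 3, with at least 2 partner genes 0.165% and 1.83%, and after thinning each cell to 5000 UMIs 0.0810% and 0.883%, against 0.684% and 2.26% as reported. Under those 3 rules day 2 keeps 3, 13 and 6 cells, so gene ratios, for which at least 20 cells were asked after the counts were seen, were not run there. With no filter on low values, 3454 genes were at least 1.5-fold higher and 14711 lower at day 2, and 4973 and 13556 at day 3, against 302, 652, 1337 and 2034 as reported. The unfiltered counts are out of fewer than the 36601 genes of the matrices, since rule genes and genes with no UMI were left out. With at least 20 UMIs expected, 147 and 284 genes were counted at day 2. Thinning gave 464 higher genes at day 3, among 5470 that could be compared, and a median log2 ratio of -0.20 over all genes, against -0.08; the 63 cells it left gave 1 PGC gene counted as higher in place of 8, and LIN28A at 0.54 (log2). For 38 named and PGC genes under 12 alternatives at day 3, 356 values lay within the counting interval of the reported one and 96 did not, and at day 2 (32 genes, 9 alternatives) 281 and 6 did; no gene counted as higher or lower changed direction. In the 20 lists outside the rule genes, 0 genes switched between higher and lower in those alternatives. No paired analysis was possible because each day is 1 library. The cause of the moved values was not tested. The 54 cells and 1249459 UMIs of day 2 limit what can be seen there.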

Other observations

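Further genes stood far apart in the NANOS3 and partner cells of day 3 and are given after their values were seen. The higher ones, PCSK1N, ACTG2, CPEB1 and DDIT4L, reached the limit of 20 UMIs only through these cells, so their direction was fixed by the filter. PCSK1N, a neuroendocrine peptide precursor, was at 77.2 CPM in the NANOS3 and partner cells, against 1.82 CPM in the other kept cells. ACTG2, a smooth muscle actin, was at 34.4 CPM, against 0.695 CPM, CPEB1, an RNA-binding regulator of translation, at 18.4 CPM, against 0.495 CPM, and DDIT4L at 20.7 CPM, against 0.508 CPM. At the other end, RSPO2, a WNT agonist, was at 1.84 CPM, against 28.2 CPM, HOXB4 at 1.58 CPM, against 10.5 CPM, and SHOX2 had 0 UMIs, against 5.86 CPM. None of PCSK1N, ACTG2, CPEB1 and DDIT4L had more than 4 UMIs in the 54 cells of day 2.

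The 72 cells of day 3 with SOX17 and FOXA2 UMIs shared some surface and signalling genes with the NANOS3 and partner cells. CXCR4 was at 56.4 CPM in the NANOS3 and partner cells and 57.0 CPM in the SOX17 and FOXA2 cells. KIT was at 34.7 CPM in the NANOS3 and partner cells and 28.2 CPM in the SOX17 and FOXA2 cells, and LEFTY1 at 66.2 CPM and 114 CPM in the same order. NANOG was at 108 CPM in the NANOS3 and partner cells and 17.9 CPM in the SOX17 and FOXA2 cells.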
